A study of Mus musculus with 8 samples.

Results

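DNA replication and S-phase genes are the genes whose products load, open and copy the DNA of a dividing cell, with the nucleotide enzymes and cell cycle factors that serve them. They were described in lung macrophages and their precursors from newborn mice with and without the nuclear receptor PPARg. A list of 45 gene symbols was looked up in the annotation of an Affymetrix expression array. Each symbol was taken from a probe set that carries that symbol alone, using the one with the highest mean where a gene had several. This found 41 of the 45 genes, among 18782 genes in all. Gins2, Rfc4, Tyms and Ccne2 were not analysed here. The list was not chosen by a threshold on the measured values, but it was chosen with earlier results of these data known.

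All mice had a C57BL/6 background and carried floxed Pparg on both alleles (PPARg fl/fl). Controls had no Cre, and knockouts carried CD11c-Cre, which is driven by the promoter of an integrin gene of macrophages and dendritic cells and removes the floxed part of Pparg in CD11c-expressing cells. Sorted cells were taken from lungs at day 2 and day 11 after birth, which gave 4 groups of 2 arrays: control day 2, knockout day 2, control day 11 and knockout day 11. The sample titles call the day 2 cells preAM and the day 11 cells AM, read here as precursors of alveolar macrophages and alveolar macrophages. Each array held RNA from cells pooled from 2 mice. The day 2 sort took CD11c-high CD45+ F4/80+ cells, with intermediate Siglec-F and CD11b or with low Siglec-F and high CD11b. Day 11 cells were CD45+, Siglec-F+ and high in CD11c and autofluorescence, and were CD11b-low in controls but CD11b-high in knockouts. The gate therefore differed with genotype at day 11 and with age, and its part cannot be told apart from that of genotype or age there. The sources used here do not say how the gates at day 2 fell on the genotypes. On a log2 scale Itgam, which encodes CD11b, read 7.87 and 7.79 in day 2 controls and 10.98 and 10.78 in day 2 knockouts. Siglecf, the gene of Siglec-F, read 9.85 and 9.90 in day 2 controls and 7.13 and 7.46 in day 2 knockouts. A gate difference between the genotypes may therefore be present at day 2 as well, and its part there was not tested.

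Replication begins when the origin recognition complex, Cdc6 and Cdt1 load the MCM helicase onto DNA in G1. Cdc45, the GINS complex and Mcm10 then help to turn that ring into an active helicase, and polymerases, the sliding clamp PCNA and the lagging-strand enzymes copy the opened strands. Many of these genes are transcribed together at the G1/S boundary under E2F transcription factors, so their summed RNA is widely read as a mark of cycling cells. Alveolar macrophages, which clear surfactant from the air spaces, form around birth from fetal monocytes, multiply in the first days of life and later maintain themselves by local division.

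The deposited values are on a log2 scale after RMA, a method that gives all arrays a common distribution. The median over all probe sets was 5.35 on every array, so a shift shared by all genes cannot be seen. Pparg itself read between 10.55 and 11.36 on the 8 arrays, and where its probes lie relative to the floxed part is not given here, so it does not check the deletion. Cidec, a lipid droplet gene and known PPARg target, read from 10.07 to 11.01 in the controls and from 5.94 to 7.09 in the knockouts. The macrophage genes Cd68 and Lyz2 read at least 12.12 on every array. Of 8 general macrophage markers, 4 were higher and 2 lower in knockouts at day 2, and 3 higher and 2 lower at day 11. Of 13 alveolar macrophage markers, 9 were lower and 1 higher at either age, among them Siglecf, a surface lectin of these cells, at -2.58 and -2.02. The summed signal of these 13 was 30596 to 30902 in controls and 20474 to 22796 in knockouts at day 2. At day 11 it was 37396 to 38202 and 27095 to 27879, and the part of this shift in the results that follow was not tested. The p-values measure the spread between these pools only, and the number of arrays limits the precision. In sorted bulk cells, fewer cells in cycle and less replication RNA in each cell cannot be told apart.

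The replication genes were lower in the knockouts at both ages. At day 2, 39 of the 41 genes fell in knockouts and none rose, where a gene is said to fall or rise if limma's p-value, adjusted by the Benjamini-Hochberg method over all 18782 genes, was under 0.05. Of all genes, 20.1% passed this test at day 2, 11.2% in the lower and 8.86% in the higher direction. The median difference over the 41 genes was -0.74 log2 units, or 1.67-fold lower, beside -0.03 over all genes. At day 11, 37 of the 41 fell and none rose, against 18.6% of all genes called, 9.29% lower and 9.34% higher. The median was -0.81, or 1.75-fold lower, beside -0.002 over all genes, and 36 genes fell at both ages.

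The pools of the genotypes were apart in nearly all of these genes, though some gaps were small. In all 41 genes both knockout arrays at day 2 lay below both control arrays, as they did for 34.2% of all genes. At day 11 this held for 40 of the 41, and for 28.7% of all genes. The median level over the 41 genes was 8.36 and 8.56 for day 2 controls, 8.01 and 8.09 for day 11 controls, 7.80 and 7.70 for day 2 knockouts, and 7.45 and 7.10 for day 11 knockouts. The 4 groups did not overlap in this median, and the day 11 knockout pools lay farther from each other than the upper of them lay from the nearest day 2 knockout pool. At day 2, 1 of the 41 genes, Tk1, was at least 2-fold lower in knockouts, as were 1.13% of all genes. At day 11 this held for 13 genes, and for 1.62% of all genes, while no replication gene was called in the interaction of genotype and age. The 2 sets of genotype differences share no array, and over the 41 genes they had a Pearson r of 0.762, given as a description because genes are not independent replicates.

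**Figure D1:**
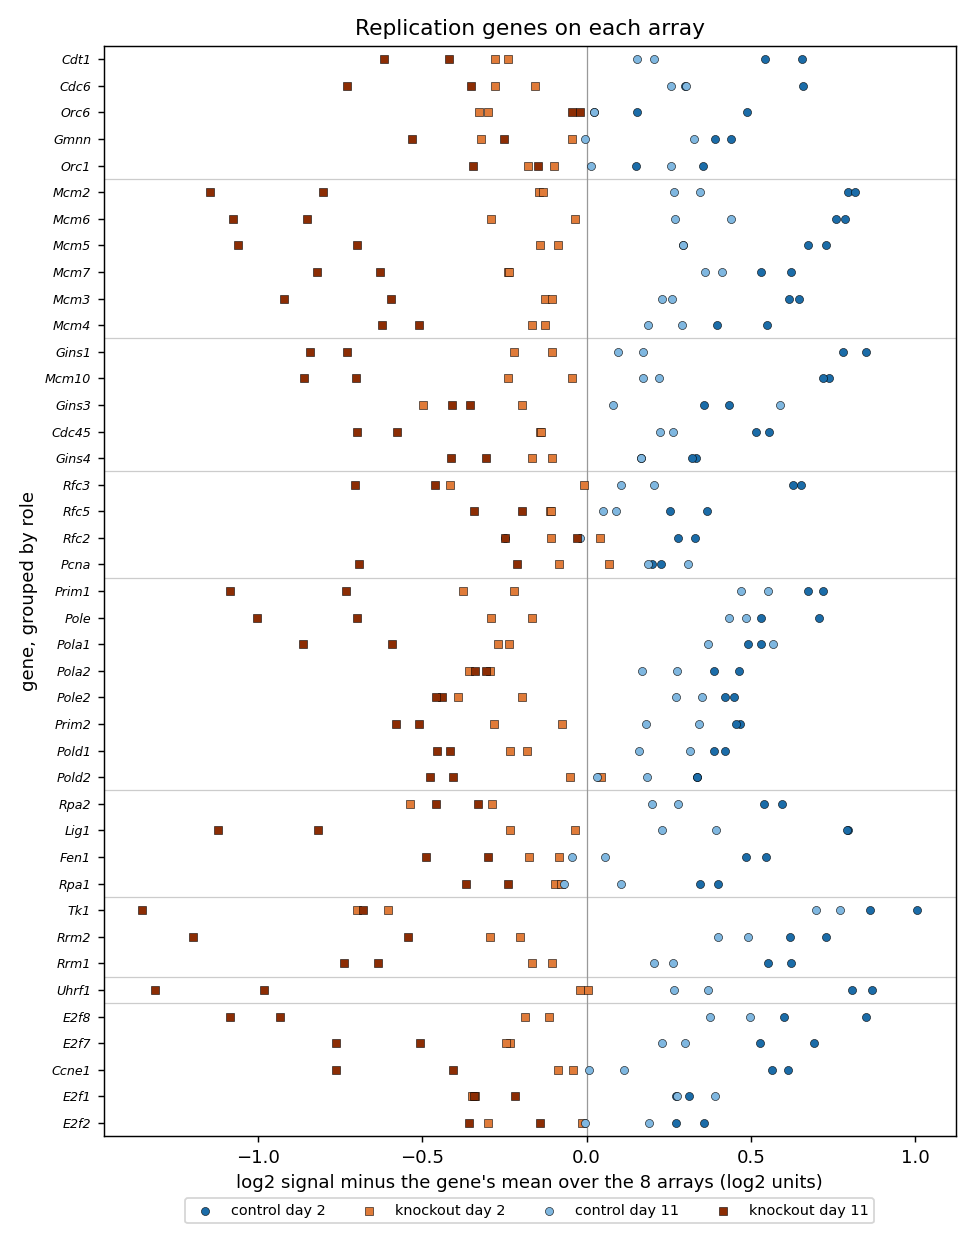
Log2 level of each of the 41 genes on each of the 8 arrays, drawn as the difference from that gene's mean over the arrays and grouped by role, with 1 point per pool. Control pools lie to the right of knockout pools at day 2 for all 41 genes.

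Other features of the knockout pools moved with these genes. Markers of monocytes were higher in the knockouts for 7 of 9 genes at day 2, and at day 11 for 4, with 1 lower. Their summed linear signal was 2227 to 2383 in controls and 9072 to 11723 in knockouts at day 2, and 2101 to 2206 and 4138 to 4545 at day 11. Dendritic cell markers were higher for 8 of 12 genes at day 2 and 2 at day 11, with sums of 830.2 to 833 in controls and 7542 to 8084 in knockouts at day 2, and of 1020 to 1280 and 1719 to 3011 at day 11. The differences of the dendritic genes at day 2 ran from 0.24 to 4.04, with a median of 1.21 and the highest in Irf4. Neutrophil and precursor genes were higher for 7 of 13 and lower for 1 at day 2, and higher for 2 and lower for 1 at day 11, with sums of 686.9 to 690 in controls and 2495 to 2715 in knockouts at day 2, and of 656.2 to 758.6 and 2708 to 2766 at day 11. The differences of this list at day 2 ran from -0.78 for Cxcr2 to 4.40 for Mmp8, both found in mature neutrophils. Elane and Mpo, which mark the dividing precursors of neutrophils, read 4.44 to 5.08 on all arrays, below the median of all probe sets. The part of these cell types in the result was not tested.

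Erythroid cells, another source of cycling cells in newborn tissue, were represented by 8 markers. Their summed signal was 310.8 to 331.8 in controls and 266.7 to 288 in knockouts at day 2, and 357.8 to 381.8 and 264.9 to 276 at day 11. Of the 8, Tfrc and Epor were lower at both ages, at -0.66 and -0.44 at day 2, and none was higher. The defining genes Klf1, Gata1 and Rhag read at most 4.43 on any array, below the median of all probe sets, and the part of this list in the result was not tested. One pool stood apart in another respect: the median level of 13 interferon response genes reached 9.85 in replicate 1 of the day 2 knockouts, with 5.44 in their replicate 2 and 4.54 to 5.25 on the other 6 arrays. Without that array 33 of the 41 replication genes fell in knockouts at day 2, with a median difference of -0.69. Xist and Y-linked genes showed that the pools differed in sex, with Xist at 3.38 in control day 2 replicate 2 and 3.46 in knockout day 11 replicate 1 and from 9.85 to 10.68 in the others. With the level of Y-linked genes as a covariate, 38 genes fell in knockouts at day 2 and 38 at day 11.

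Because E2F factors bind many of these genes near their start sites, the promoter sequences were searched for 4 forms of the E2F motif, TTTCCCGC, TTTGGCGC, TTTCGCGC and TTTGCCGC, on both strands, with overlapping matches merged into 1 site. The sequences are RefSeq windows of GRCm38.p6, from 250 bases before to 50 bases after a start site, and 34 of the 41 genes had at least 1 window. Promoters are shown for Mcm6, Lig1 and Cdt1, which had the largest day 2 differences among genes with a motif, and for Pcna and Pold2, which had the smallest among genes with a window. Each is written from 5′ to 3′ on the strand of the gene, with the motif in capitals. They lie at chr1:128359656-128359955 on the minus strand for Mcm6, chr7:13278576-13278875 on the plus strand for Lig1, chr8:122567765-122568064 on the plus strand for Cdt1, chr2:132253131-132253430 on the minus strand for Pcna and chr11:5878207-5878506 on the minus strand for Pold2. The Lig1 window belongs to a start site inside the annotated gene and is 1 of 3 windows of that gene. It is shown because it held the most sites. The other windows of Lig1 held no site, among them the one at the annotated start of the gene.
Mcm6: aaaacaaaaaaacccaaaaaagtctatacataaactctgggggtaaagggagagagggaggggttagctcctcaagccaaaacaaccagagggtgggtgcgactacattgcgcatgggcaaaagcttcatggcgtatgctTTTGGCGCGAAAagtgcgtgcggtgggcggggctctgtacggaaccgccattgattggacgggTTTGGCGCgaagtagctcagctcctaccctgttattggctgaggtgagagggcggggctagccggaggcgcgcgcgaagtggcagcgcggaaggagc
Lig1: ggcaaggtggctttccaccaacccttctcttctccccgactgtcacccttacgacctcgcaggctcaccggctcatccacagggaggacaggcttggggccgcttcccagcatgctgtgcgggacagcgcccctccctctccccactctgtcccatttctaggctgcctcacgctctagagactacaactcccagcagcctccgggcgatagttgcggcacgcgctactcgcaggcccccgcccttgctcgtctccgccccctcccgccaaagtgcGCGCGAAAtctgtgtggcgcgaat
Cdt1: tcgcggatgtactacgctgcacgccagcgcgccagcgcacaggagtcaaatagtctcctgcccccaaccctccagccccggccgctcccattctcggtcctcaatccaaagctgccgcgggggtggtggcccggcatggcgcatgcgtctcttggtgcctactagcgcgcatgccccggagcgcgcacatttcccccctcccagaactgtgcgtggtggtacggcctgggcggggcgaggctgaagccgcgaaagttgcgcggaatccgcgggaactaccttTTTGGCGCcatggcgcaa
Pcna: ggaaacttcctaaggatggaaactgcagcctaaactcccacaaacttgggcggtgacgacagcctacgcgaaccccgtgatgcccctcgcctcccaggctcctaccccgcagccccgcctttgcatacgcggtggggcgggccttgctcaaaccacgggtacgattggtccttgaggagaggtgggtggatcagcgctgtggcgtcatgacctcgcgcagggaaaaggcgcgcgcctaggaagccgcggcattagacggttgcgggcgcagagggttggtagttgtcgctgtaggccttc
Pold2: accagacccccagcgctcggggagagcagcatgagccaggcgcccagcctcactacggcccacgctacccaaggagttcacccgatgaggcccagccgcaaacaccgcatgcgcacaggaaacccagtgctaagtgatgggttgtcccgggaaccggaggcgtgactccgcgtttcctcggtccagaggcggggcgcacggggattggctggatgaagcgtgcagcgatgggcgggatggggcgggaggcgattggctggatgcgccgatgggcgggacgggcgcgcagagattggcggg

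The Mcm6 window held 2 sites, and the Lig1 and Cdt1 windows held 1 each. In Mcm6 the first site is 12 bases long, made of TTTGGCGC overlapping TTTCGCGC on the other strand, and Mcm5 held a site of the same make. None of the 4 forms occurs in the window shown for Pcna or for Pold2. In all, 16 of the 34 genes held a motif (47.06%), beside 3.559% of the 14724 tested genes that have a window. By windows, the shares were 39.02% of 41 and 3.062% of 18125. TTTCCCGC, TTTGGCGC and TTTCGCGC each occurred in 7 of the genes, and TTTGCCGC in none. Of the 20 sites, 11 were centred before the start site and 13 lay within 100 bases of it. The short GC-rich core GGCGGG, which many promoters hold, was in 73.17% of the windows and in 48.86% of those of all genes tested. The median knockout difference at day 2 was -0.79 for the 16 genes with a motif, -0.70 for the 18 with a window and no motif, and -0.62 for the 7 without a window. Tk1, with the largest fall of all, was among the genes without a motif in its window. A match is a string of letters and was not tested as a binding site.

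**Figure D2:**
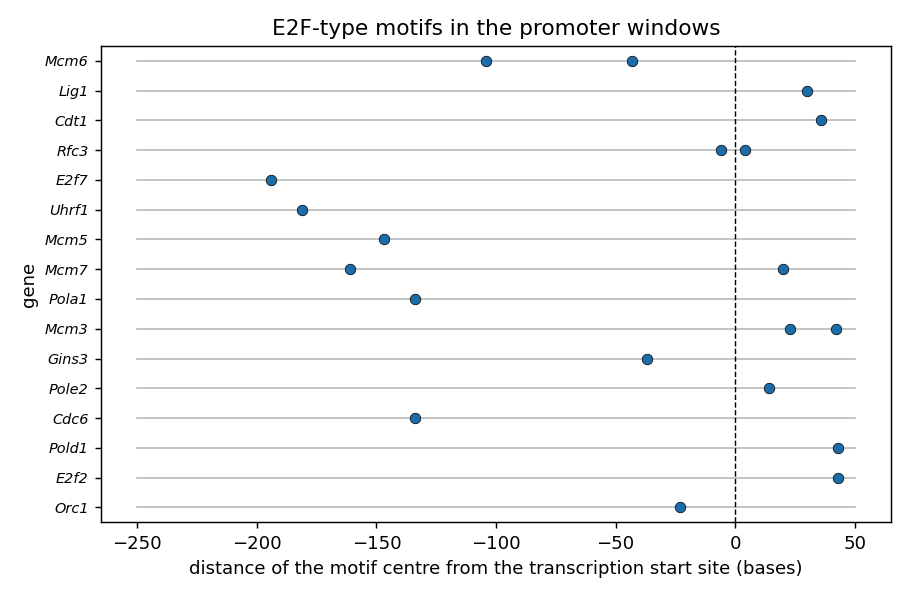
Distance in bases from the RefSeq start site to the centre of each E2F-type motif in the promoter windows, with 1 line per gene that holds one and 0 marking the start site. Of the 20 sites, 13 lie within 100 bases of the start.

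Origin licensing genes fell in knockouts at day 2 in 5 of 5 cases, with a median difference of -0.63. Cdt1, which brings the MCM ring to the origin, read 8.90 and 9.01 in control pools at day 2, 8.08 and 8.12 in knockouts at day 2, 8.51 and 8.56 in controls at day 11, and 7.94 and 7.74 in knockouts at day 11. No knockout array reached the lowest control array at either age. The differences were -0.86 ± 0.08 at day 2 (SE of limma, adjusted p = 0.000272, n = 2 arrays in each group) and -0.70 ± 0.08 at day 11 (adjusted p = 0.000763). Cdc6, its loading partner, fell by 0.70 ± 0.15 and 0.82 ± 0.15. Gmnn, which encodes geminin, the inhibitor of Cdt1, fell alongside it by 0.60 ± 0.14 and 0.55 ± 0.14. Gmnn and Orc1 were the only 2 of the 41 genes with no group mean above the median of all genes and arrays. The day 2 calls of Cdc6 and Gmnn were lost without control day 2 replicate 2 or knockout day 2 replicate 1, and that of Gmnn also without control day 2 replicate 1. The day 11 call of Gmnn was lost without control day 11 replicate 2, knockout day 11 replicate 2 or either control day 2 array. A second Gmnn probe set gave -0.26 and -0.04, neither of them called.

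The origin recognition subunits behaved less evenly at day 11. Orc1, the largest subunit, was called at day 2 (-0.39 ± 0.11, adjusted p = 0.0446) but not at day 11 (-0.38 ± 0.11, adjusted p = 0.052), with almost the same difference at both ages. Its day 2 call was lost without any single day 2 array, with adjusted p up to 0.229 over the alternatives tried. Orc6, the smallest subunit, read 8.29 and 8.62 in control pools at day 2, 7.84 and 7.81 in knockouts at day 2, 8.16 on both control arrays at day 11, and 8.09 and 8.12 in knockouts at day 11. The knockout arrays lay clearly below the controls at day 2 and just below them at day 11. Orc6 fell by 0.63 ± 0.10 at day 2 (adjusted p = 0.00346), and its day 11 difference of -0.05 ± 0.10 (95% interval -0.29 to 0.18, adjusted p = 0.809) was not called. Orc6 was picked out for its values after they were seen.

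All 6 subunits of the MCM helicase, the ring that unwinds DNA ahead of the fork, fell in knockouts at both ages, with a median of -0.81 (1.76-fold) at day 2 and -1.14 (2.21-fold) at day 11. Mcm2 levels were 9.66 and 9.68 in control pools at day 2, 8.71 and 8.73 in knockouts at day 2, 9.20 and 9.13 in controls at day 11, and 8.06 and 7.72 in knockouts at day 11. The same order of groups was seen in Mcm6, at 8.96 and 8.93, 8.14 and 7.88, 8.61 and 8.44, and 7.32 and 7.10, given in the order of the groups used for Mcm2. Mcm5 gave 9.51 and 9.57 in day 2 controls, 8.75 and 8.70 in day 2 knockouts, 9.13 on both day 11 control arrays, and 8.14 and 7.78 in day 11 knockouts. In these 3 genes each group was clear of the next, from control day 2 at the top to knockout day 11 at the bottom. The Mcm2 level was lower in knockouts by 1.93-fold at day 2 and by 2.42-fold at day 11 (-0.95 ± 0.11 and -1.28 ± 0.11, adjusted p = 0.000584 and 0.000146). Mcm6 fell by 0.93 ± 0.11 and 1.32 ± 0.11, and Mcm5 by 0.81 ± 0.11 and 1.17 ± 0.11.

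The other 3 subunits fell in the same way. Mcm3 read 9.07 and 9.10 in day 2 controls, 8.32 and 8.34 in day 2 knockouts, 8.68 and 8.71 in day 11 controls, and 7.85 and 7.53 in day 11 knockouts. Mcm4 read 9.70 and 9.55, 8.98 and 9.02, 9.44 and 9.34, and 8.64 and 8.53 in the same order. Mcm7 read 10.03 and 10.12, 9.26 and 9.26, 9.91 and 9.86, and 8.87 and 8.68. Knockout and control arrays were apart in each. The gap was wider at day 11, but this change was not called in the limma interaction (adjusted p = 0.426, 0.46 and 0.235 for Mcm3, Mcm4 and Mcm7). At day 2 Mcm7 fell by 0.81 ± 0.08, Mcm3 by 0.75 ± 0.10 and Mcm4 by 0.62 ± 0.08. At day 11 Mcm7 fell by 1.11 ± 0.08, Mcm3 by 1.003 ± 0.10 and Mcm4 by 0.81 ± 0.08. Each of these 12 calls held in all 17 alternative analyses.

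All 5 genes of helicase activation fell in knockouts at both ages, with medians of -0.74 and -0.88. Gins1, a subunit of the GINS complex that joins MCM and Cdc45 in the active helicase, read 8.30 and 8.37 in control pools at day 2, 7.41 and 7.30 in knockouts at day 2, 7.69 and 7.61 in controls at day 11, and 6.68 and 6.79 in knockouts at day 11. The 4 groups did not overlap. The differences were -0.98 ± 0.07 at day 2 (adjusted p = 9.88e-05) and -0.92 ± 0.07 at day 11 (adjusted p = 0.000135). Cdc45 fell by 0.67 ± 0.07 and 0.88 ± 0.07, and Mcm10, which acts when the helicase starts, by 0.87 ± 0.09 and 0.98 ± 0.09. The other GINS subunits fell less, Gins3 by 0.74 ± 0.16 and 0.72 ± 0.16 and Gins4 by 0.46 ± 0.06 and 0.52 ± 0.06, and whether they differ from Gins1 was not tested. The Gins3 calls were lost without either control day 2 array or knockout day 2 replicate 1 at day 2, and without control day 11 replicate 1 or either knockout array at day 11.

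Of the 4 genes of the clamp and its loader, 2 fell at day 2 and 3 at day 11. Rfc3, a subunit of the RFC complex that opens the clamp, read 8.54 and 8.56 in day 2 controls, 7.90 and 7.49 in day 2 knockouts, 8.01 and 8.12 in day 11 controls, and 7.45 and 7.21 in day 11 knockouts. Knockouts lay below controls of the same age on every array, and Rfc3 fell by 0.85 ± 0.14 (adjusted p = 0.00333) and 0.74 ± 0.14 (adjusted p = 0.00723). Rfc5 fell by 0.42 ± 0.07 and 0.34 ± 0.07. The day 11 call of Rfc3 was lost without control day 11 replicate 2, and that of Rfc5 without either control array or knockout replicate 2 of that age. The Rfc5 calls at both ages were also lost after centring on housekeeping genes. Rfc2 was called at neither age, at -0.34 ± 0.11 at day 2 (95% interval -0.58 to -0.09, adjusted p = 0.0604) and -0.01 ± 0.11 at day 11 (-0.25 to 0.24, adjusted p = 0.985). The Rfc2 arrays read 7.78 and 8.01 in day 11 controls and 8.0 and 7.78 in day 11 knockouts, and this was the gene whose groups overlapped at that age.

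Pcna, the sliding clamp that holds polymerases on DNA, read 11.78 and 11.81 in control pools at day 2, 11.65 and 11.50 in knockouts at day 2, 11.89 and 11.77 in controls at day 11, and 10.89 and 11.37 in knockouts at day 11. The knockout arrays were lower at both ages, and those of day 11 were far apart from each other. The day 2 difference of -0.22 ± 0.14 (95% interval -0.55 to 0.11, adjusted p = 0.352) was not called. At day 11 Pcna fell by 0.70 ± 0.14 (adjusted p = 0.0115), a call that was lost without control day 11 replicate 1 (adjusted p up to 0.0837 over the alternatives). A second Pcna probe set gave nearly the same values on each array (-0.23 and -0.69). Whether the probe sets share probes is not given here, so it may not be an independent reading. Pcna and Rfc2 were singled out here after their values were seen.

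Polymerase and primase genes fell in knockouts in 8 of 8 cases at each age, with medians of -0.74 and -0.78. Prim1, the catalytic subunit of the primase that lays the RNA primers, read 7.92 and 7.96 in day 2 controls, 7.02 and 6.87 in day 2 knockouts, 7.80 and 7.71 in day 11 controls, and 6.51 and 6.16 in day 11 knockouts. Controls of both ages lay well above knockouts of both ages. Prim1 was 1.99-fold lower at day 2 (-0.996 ± 0.12, adjusted p = 0.000707) and 2.67-fold lower at day 11 (-1.42 ± 0.12, adjusted p = 0.000138). Its partner Prim2 fell by 0.64 ± 0.09 and 0.81 ± 0.09. The polymerase alpha subunits fell by 0.76 ± 0.10 and 1.20 ± 0.10 for the catalytic Pola1 and by 0.75 ± 0.07 and 0.54 ± 0.07 for the accessory Pola2.

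The subunits of polymerase epsilon, which copies the leading strand, differed by -0.85 ± 0.11 at day 2 and -1.31 ± 0.11 at day 11 for the catalytic Pole and by -0.73 ± 0.08 and -0.76 ± 0.08 for Pole2. The smallest difference of the class at day 2 was in a subunit of polymerase delta, which copies the lagging strand. Pold2, its accessory subunit, read 8.93 and 8.94 in day 2 controls, 8.55 and 8.64 in day 2 knockouts, 8.63 and 8.78 in day 11 controls, and 8.19 and 8.12 in day 11 knockouts. Knockouts lay below controls of their age, with the day 2 knockouts close to the day 11 controls. Pold2 fell by 0.34 ± 0.07 at day 2 (adjusted p = 0.0148) and 0.55 ± 0.07 at day 11 (adjusted p = 0.00154). The day 2 call was lost without either control day 2 array or knockout day 2 replicate 1, and after centring on housekeeping genes. Pold1, the catalytic subunit, fell by 0.61 ± 0.07 and 0.67 ± 0.07.

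The genes that protect single-stranded DNA and finish the lagging strand fell in 4 of 4 cases at each age. Rpa2, a subunit of the single-strand binding protein RPA, read 7.46 and 7.41 in day 2 controls, 6.58 and 6.33 in day 2 knockouts, 7.07 and 7.14 in day 11 controls, and 6.41 and 6.54 in day 11 knockouts. The knockouts of both ages overlapped with each other and lay below both control groups. Rpa2 fell by 0.98 ± 0.09 at day 2 (adjusted p = 0.000274) and 0.63 ± 0.09 at day 11 (adjusted p = 0.00251). Fen1, the nuclease that trims the flap of an Okazaki fragment, read 7.82 and 7.88, 7.25 and 7.16, 7.39 and 7.29, and 7.03 and 6.84 in that order of groups. Its control arrays at day 11 lay only just above the knockout arrays at day 2. Fen1 fell by 0.64 ± 0.08 at day 2 (adjusted p = 0.0012) and 0.40 ± 0.08 at day 11 (adjusted p = 0.0124), while a second, dimmer Fen1 probe set gave -0.23 and -0.06, neither called.

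Lig1, the ligase that seals the fragments, fell by 0.93 ± 0.12 and 1.28 ± 0.12. Rpa1, the large RPA subunit, fell by 0.46 ± 0.08 and 0.32 ± 0.08. The Rpa1 and Fen1 calls at day 11 were each lost without control day 11 replicate 1 or knockout day 11 replicate 2. After centring on housekeeping genes the Rpa1 calls at both ages were lost, as was the Fen1 call at day 11.

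The largest difference at each age was in a gene of nucleotide supply. Tk1, thymidine kinase, which salvages thymidine for DNA synthesis, read 9.14 and 9.29 in control pools at day 2, 7.58 and 7.68 in knockouts at day 2, 8.98 and 9.05 in controls at day 11, and 7.60 and 6.93 in knockouts at day 11. Controls of both ages lay more than 1 unit above every knockout array. Tk1 was 2.998-fold lower in knockouts at day 2 (-1.58 ± 0.19, adjusted p = 0.000723) and 3.36-fold lower at day 11 (-1.75 ± 0.19, adjusted p = 0.000456). A second Tk1 probe set gave -1.53 and -1.73. Rrm1, the large subunit of ribonucleotide reductase, read 10.31 and 10.38, 9.59 and 9.65, 10.02 and 9.96, and 9.12 and 9.02 in the same order. Its 4 groups were clear of each other, and it fell by 0.72 ± 0.07 at day 2 and 0.92 ± 0.07 at day 11. The small subunit Rrm2 fell by 0.92 ± 0.18 and 1.32 ± 0.18, with the day 2 call lost without control day 2 replicate 2.

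Uhrf1, which brings the maintenance DNA methyltransferase to newly copied DNA, read 8.35 and 8.40 in day 2 controls, 7.54 and 7.52 in day 2 knockouts, 7.80 and 7.91 in day 11 controls, and 6.55 and 6.22 in day 11 knockouts. The day 11 knockouts stood well below all other arrays. Uhrf1 was 1.80-fold lower in knockouts at day 2 (-0.85 ± 0.11, adjusted p = 0.00102) and 2.76-fold lower at day 11 (-1.47 ± 0.11, adjusted p = 7.66e-05).

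The E2F factors and cyclin E fell in 5 of 5 cases at day 2 and 4 of 5 at day 11. E2f8, an atypical E2F that represses E2F targets later in S phase and is itself one of them, read 7.85 and 8.10 in day 2 controls, 7.07 and 7.14 in day 2 knockouts, 7.75 and 7.63 in day 11 controls, and 6.32 and 6.17 in day 11 knockouts. All 4 groups were apart, with the largest step down to the day 11 knockouts. E2f8 fell by 0.88 ± 0.10 (adjusted p = 0.000656) and 1.45 ± 0.10 (adjusted p = 6.18e-05), and its relative E2f7 by 0.85 ± 0.10 and 0.90 ± 0.10. Among the activators, E2f1 fell by 0.64 ± 0.07 and 0.61 ± 0.07. E2f2 fell by 0.47 ± 0.12 at day 2 (adjusted p = 0.0283), a call lost without either control day 2 array or knockout day 2 replicate 1, and was at -0.34 ± 0.12 at day 11 (adjusted p = 0.0945).

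Ccne1, the cyclin that drives CDK2 at the start of S phase, read 8.31 and 8.36 in day 2 controls, 7.66 and 7.70 in day 2 knockouts, 7.86 and 7.75 in day 11 controls, and 7.34 and 6.98 in day 11 knockouts. Its day 11 controls lay just above the day 2 knockouts. Ccne1 fell in knockouts by 0.65 ± 0.11 at both ages (adjusted p = 0.00469 at day 2 and 0.00526 at day 11).

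**Figure D3:**
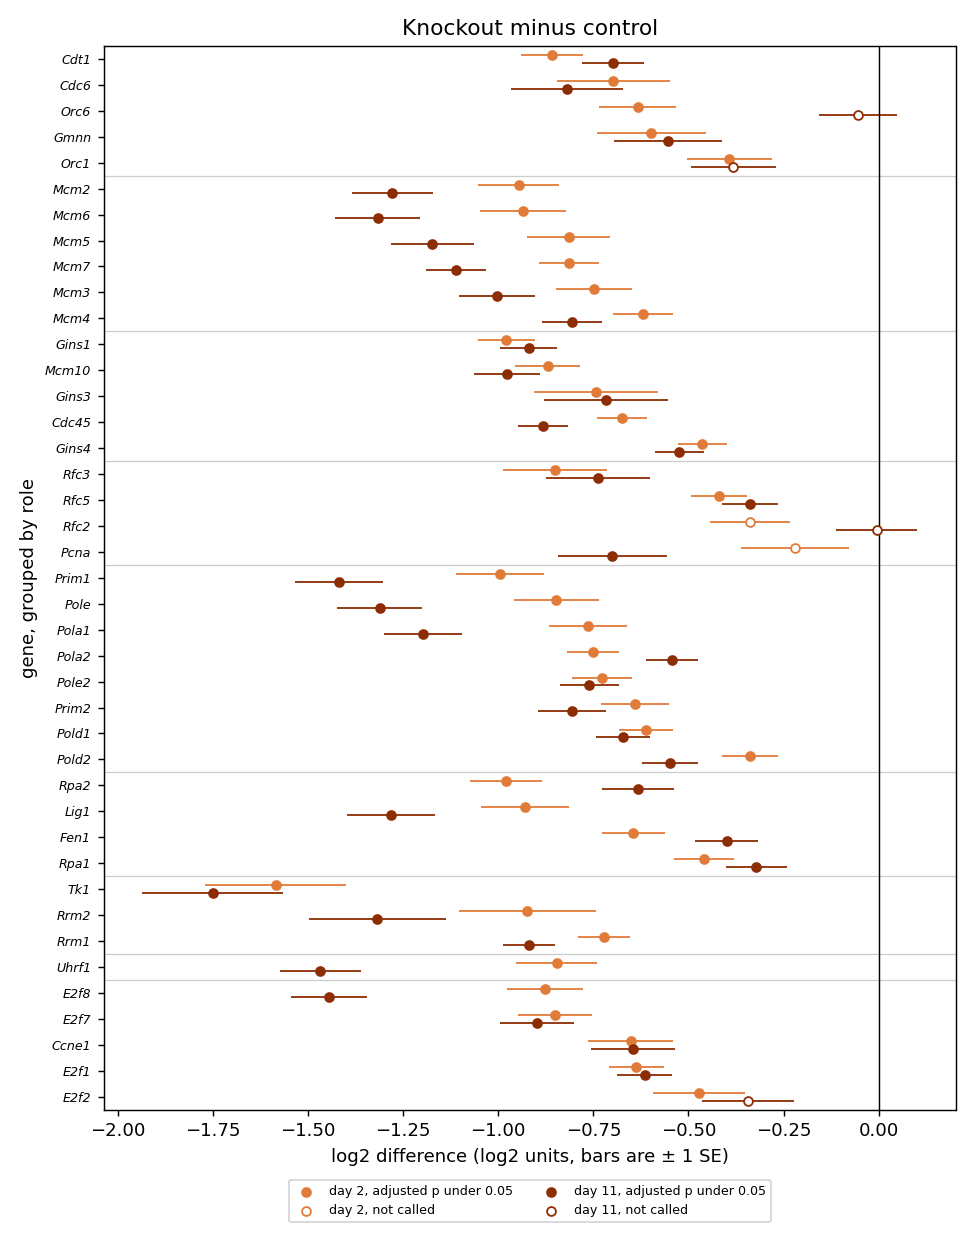
Knockout minus control log2 difference of the 41 genes at day 2 and day 11, grouped by role, with bars of 1 SE from limma and filled points for genes called at an adjusted p under 0.05. All points lie below 0, and 39 are filled at day 2 and 37 at day 11.

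Some of these genes were lower in the day 11 control cells, titled AM, than in the day 2 control cells, titled preAM and sorted by another gate. Of the 41 genes, 10 fell and none rose, against 5.3% of all genes called (2.49% lower and 2.81% higher), with a median difference of -0.25 beside -0.01 over all genes. Both day 11 arrays lay below both day 2 arrays in 35 genes, as in 28.7% of all genes. The genes that fell were Cdt1, Mcm2, Mcm10, Cdc45, Gins1, Rpa1, Fen1, Rrm1, Uhrf1 and Ccne1. Gins1 fell most, by 0.68 ± 0.07 (adjusted p = 0.00294), and its call held in every alternative analysis. Each of the other 9 calls was lost in at least 1 alternative, and without any single control array only 1 or 2 genes were called. Mcm10 fell by 0.53 ± 0.09, Ccne1 by 0.53 ± 0.11, Uhrf1 by 0.52 ± 0.11 and Mcm2 by 0.50 ± 0.11. None of the 8 polymerase and primase genes or the 4 clamp and loader genes was called, with medians of -0.18 and -0.34, and E2f1 was at 0.04 ± 0.07. Among the monocyte markers 3 of 9 were lower and 1 higher at day 11 in controls, and their part was not tested.

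In knockouts over the same days 20 of the 41 fell and none rose, against 15.5% of all genes called (6.71% lower and 8.81% higher). The median was -0.39, beside 0.01 over all genes. Both day 11 arrays lay below both day 2 arrays in 31 genes (24.6% of all genes) and above them in 1, Orc6 (29.3% of all genes). All 6 MCM subunits fell, from 0.42 ± 0.08 for Mcm4 to 0.83 ± 0.11 for Mcm2. Lig1 fell by 0.84 ± 0.12, E2f8 by 0.86 ± 0.10 and Uhrf1 by 1.14 ± 0.11 (adjusted p = 0.000567), and Pole, Prim1 and Pola1 by 0.62 ± 0.11, 0.61 ± 0.12 and 0.48 ± 0.10. None of the licensing and clamp genes was called. Orc6 was at 0.28 ± 0.10 (adjusted p = 0.113) and was called higher without either control day 2 array. The pool marked replicate 2 of the day 11 knockouts was below replicate 1 in 34 of the 41 genes, against 20, 13 and 21 in the day 2 knockouts, day 2 controls and day 11 controls. Without it 16 of the 41 fell and the median was -0.30, and without replicate 1 these were 23 and -0.49. With the Y-linked covariate 15 fell. The calls of Mcm4, Pola1, Prim1, Prim2, E2f7 and Ccne1 over these days were each lost without at least 1 knockout array. Other marker lists also moved over these days in knockouts, with 8 of 9 monocyte, 6 of 12 dendritic and 6 of 13 neutrophil and precursor markers lower at day 11, and 8 of 13 alveolar macrophage markers higher. In controls 5 of the 13 alveolar macrophage markers were higher at day 11 and none was lower. The part of these cell types was not tested.

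**Figure D4:**
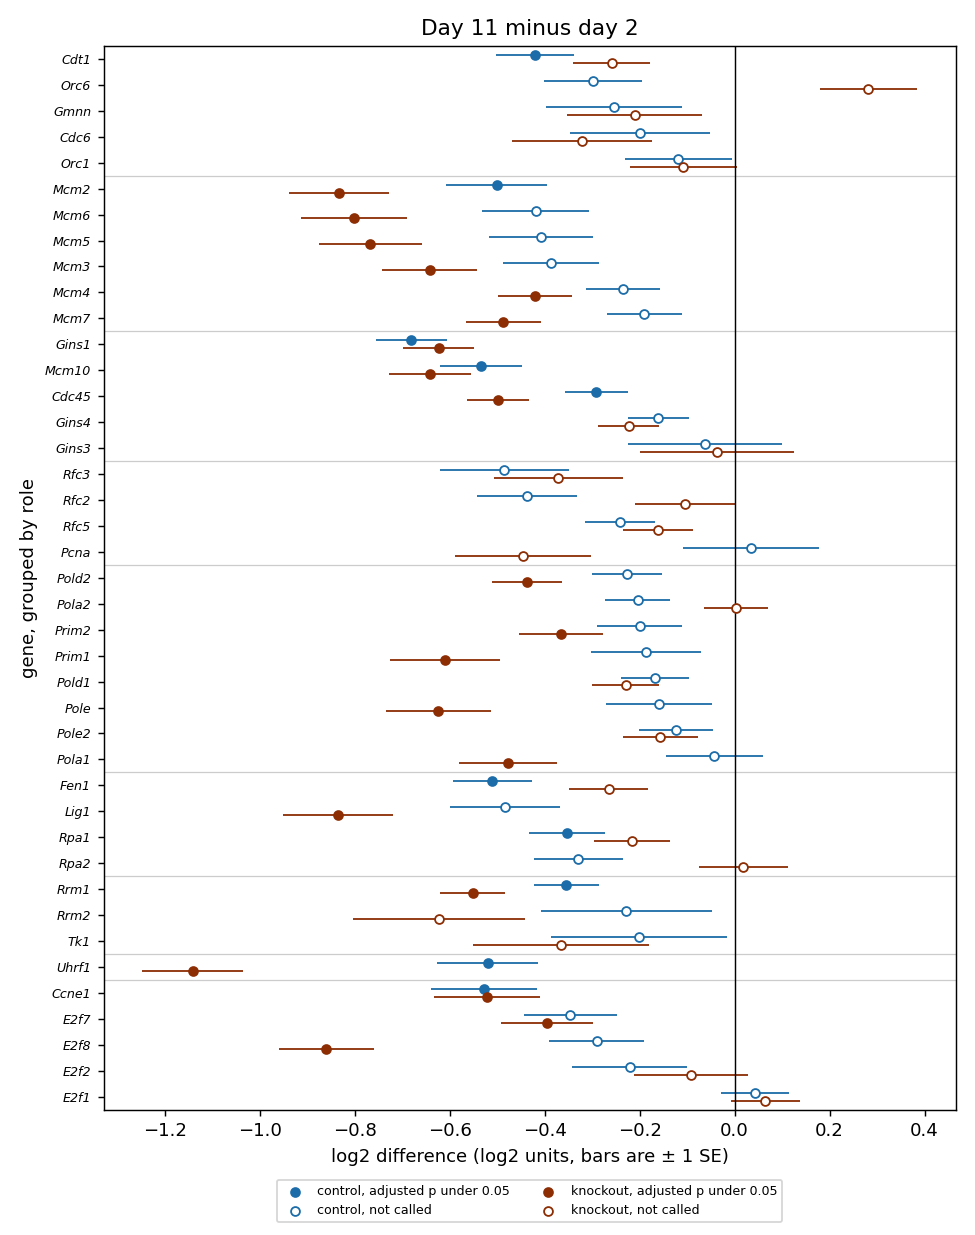
Day 11 minus day 2 log2 difference of the 41 genes in controls and in knockouts, grouped by role, with bars of 1 SE from limma and filled points for genes called at an adjusted p under 0.05. Orc6 in knockouts is the point farthest above 0, at 0.28, and Uhrf1 in knockouts the one farthest below, at -1.14.

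The 4 groups fell into 1 order in most genes. Group means ran from control day 2 through control day 11 and knockout day 2 down to knockout day 11 in 35 of the 41 genes, against 8.67% of all genes. In 27 of them no neighbouring groups overlapped, which held for 1.95% of all genes. In 39 genes both control arrays at day 11 lay above both knockout arrays at day 2, as for 32.4% of all genes. The exceptions to the order were Orc6, Pcna, Rfc2, Pola2, Rpa2 and E2f1. In Pola2 and Rpa2 the knockouts of the 2 ages were level, with day 11 differences of 0.00 ± 0.07 and 0.02 ± 0.09. In E2f1 the difference with age was 0.04 ± 0.07 in controls and 0.07 ± 0.07 in knockouts, neither called.

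Whether the genotype difference itself changed with age was tested as the interaction in limma, and none of the 41 genes was called, against 3.27% of all genes. At an unadjusted p under 0.05 there were 11 genes (17% of all genes), 9 with a wider gap at day 11 and 2 with a narrower one. The largest values were -0.62 for Uhrf1 (95% interval -0.97 to -0.27, adjusted p = 0.0777), -0.57 for E2f8 (-0.90 to -0.24, adjusted p = 0.0847) and 0.58 for Orc6 (0.24 to 0.91, adjusted p = 0.0847). The median over the 41 genes was -0.11, beside 0.02 over all genes, and 25 genes had the larger absolute difference at day 11. With single arrays left out, Orc6 was called without control day 2 replicate 1 (0.75, adjusted p = 0.0269), Uhrf1 and Rrm2 without knockout day 11 replicate 1 (-0.79 and -0.72), and Pcna without knockout day 11 replicate 2 (-0.72).

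A second list held 71 other genes of replication, licensing control and replication-coupled repair, of which 64 were measured. At day 2 in knockouts 44 of them fell and 1 rose, with a median of -0.53, against 11.2% of all genes lower and 8.86% higher. The largest falls were in Cdc25a, the phosphatase that activates CDK2 (-1.48 ± 0.09), Brca1, which acts at damaged forks (-1.09 ± 0.09), and Dtl, which directs Cdt1 to destruction (-1.07 ± 0.15). E2f5, a repressor E2F of resting cells, rose by 0.34 ± 0.09. At day 11, 39 fell and 3 rose, with a median of -0.41, against 9.29% of all genes lower and 9.34% higher. Centred on housekeeping genes, 32 fell and 5 rose at day 2, and 30 fell and 11 rose at day 11. None rose at day 11 without control day 11 replicate 1, control day 11 replicate 2 or knockout day 11 replicate 2, where 28, 31 and 30 fell. Cdc25a fell by 1.60 ± 0.09, Ticrr, which helps to recruit Cdc45, by 1.44 ± 0.10, and Dtl by 1.42 ± 0.15. The genes that rose were Rrm2b, the reductase subunit used outside S phase (0.51 ± 0.13), E2f5 (0.38 ± 0.09) and Rbl2, a pocket protein of resting cells (0.28 ± 0.07). The calls of Cdc25a, Ticrr, Dtl and Brca1 in knockouts held in the 14 alternatives run for this list, while each of these rises was lost without some single arrays.

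With age the same list showed fewer calls. Of all genes, 2.49% were lower and 2.81% higher with age in controls, and 6.71% and 8.81% in knockouts. In controls 6 of the 64 fell and none rose, led by the chromatin remodeler Hells (-0.61 ± 0.06), the fork protein Wdhd1 (-0.50 ± 0.10) and the histone chaperone Nasp (-0.40 ± 0.06). In knockouts 17 fell and 5 rose, with Hells, Wdhd1 and Ticrr at -0.78 ± 0.06, -0.74 ± 0.10 and -0.66 ± 0.10 and Rrm2b, Rbl2 and Pold4 at 0.72 ± 0.13, 0.46 ± 0.07 and 0.42 ± 0.09. Without any 1 of the 4 control arrays only 1 fell in controls, and with only the arrays compared in the fit 10 fell and 4 rose. In knockouts 8 fell with only the arrays compared, 10 each without knockout day 2 replicate 1, with the Y-linked covariate and with housekeeping centring, and 6 without knockout day 11 replicate 2. None was called in the interaction.

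Genes of other cell cycle phases were set beside them. Of all genes in knockouts, 11.2% were lower and 8.86% higher at day 2, and 9.29% and 9.34% at day 11. All 18 measured mitosis genes fell in knockouts at both ages, with medians of -0.77 and -1.16, and 15 of 18 fell between day 2 and day 11 in knockouts and none in controls. None of the 18 was called in the interaction, and with only the arrays compared in the fit 9 fell in knockouts and 6 in controls. In controls 5 fell without either knockout day 11 array. Over the alternatives run for this list 15 to 18 fell at day 2 and all 18 at day 11. Of 15 G1 cyclins and CDK inhibitors, 3 rose and 4 fell in knockouts at day 2, and as many at day 11. Centred on housekeeping genes, 6 rose at each age, with 2 and 3 lower. At day 11, 1 rose and 2 fell without control day 11 replicate 1 or knockout day 11 replicate 2, and 1 rose and 3 fell without control day 11 replicate 2, and 2 rose and 4 fell at day 2 without control day 2 replicate 1. Among the D cyclins, which act in the G1 phase, Ccnd1 and Ccnd2 moved in opposite directions. Ccnd1 rose by 1.86 ± 0.15 and 2.33 ± 0.15, and Ccnd2 fell by 2.48 ± 0.16 and 2.35 ± 0.16. These were the highest and lowest differences of the list at both ages. Cdkn1a, the CDK inhibitor p21, was 1 of the 3 that rose at day 2, by 0.49 ± 0.08 (adjusted p = 0.00346). It was at 0.23 ± 0.08 at day 11 (adjusted p = 0.0918). The median difference of the 15 genes was -0.04 at day 2 and -0.02 at day 11, and the others are not named here.

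**Figure D5:**
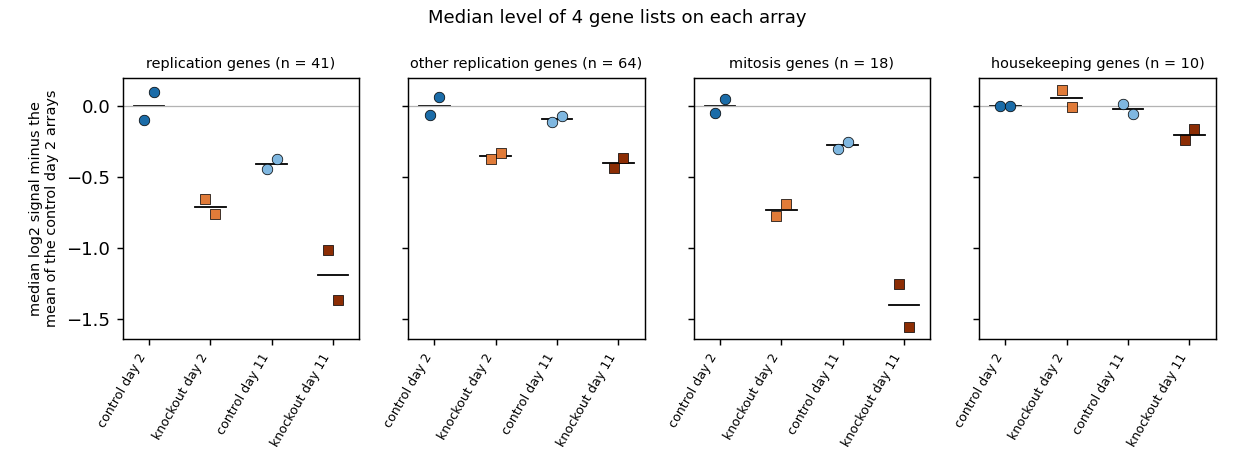
Median log2 level of 4 gene lists on each array, drawn as the difference from the mean of the control day 2 arrays, with 1 point per pool and a line at each group's mean. Replication and mitosis genes are highest in control day 2 and lowest in knockout day 11, with control day 11 above knockout day 2. The 10 housekeeping genes read 10.11 and 10.19 in the day 11 knockouts against 10.30 to 10.47 on the other arrays.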

How the data were processed

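RNA of sorted lung macrophages and their precursors was measured on 8 Affymetrix arrays. The deposited log2 values of 28874 probe sets were made by the authors by RMA; the submitters' processing notes name R 2.15.2. Scanner files were not used here. Of the probe sets, 21159 had 1 gene symbol, 1881 had several and 5834 none, and 21129 matched RefSeq by Entrez identifier with no symbol changed. The highest-mean probe set stood for each of 18782 genes. Models with 1 mean per group over all 8 arrays were fitted in limma 3.58.1 (R 4.3.3; 4 residual and 3.77 prior degrees of freedom), with Benjamini-Hochberg adjustment over all genes and errors as SE. On simulated data for the day 2 comparison (18782 genes, 200 of them changed), 47% of changes of 0.5 log2 units and 91% of changes of 1 were recovered, with 4 false calls. In the real comparison 3774 genes were called, and the adjustment depends on that share, so these rates do not give its power. Promoters were searched in Python 3.11.15 and figures drawn with matplotlib 3.10.9.

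The members, the gene lists and the alternatives were chosen with earlier results of these data known, 1 alternative (the second probe set) after these values were seen. Array values are given for the gene of each role with the largest day 2 knockout difference or control age difference, for Mcm2 to Mcm7, and where stated for genes singled out later. Other replication genes are named as the 3 largest called changes in each direction.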

Additional observations from a re-analysis of the deposited data

How the results depend on the processing

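Results were recomputed under 17 alternatives, and no gene that was called changed direction. Calls held in every alternative for 29 of 39 genes in knockouts at day 2, 30 of 37 at day 11, 1 of 10 in controls with age and 14 of 20 in knockouts with age. Centred on the mean of 10 housekeeping genes, the median over all genes moved to 0.18 at day 2 and 0.24 at day 11. Of these 10 genes, 3 were themselves called lower in knockouts at day 2 and 4 at day 11. Their differences reached -0.96 and -0.94, while their medians were -0.04 at both ages, so their mean is not a stable reference. The medians of the replication genes became -0.54 and -0.56, and 33 and 32 genes were called. The calls lost were those of Orc1, Gmnn, Rfc5, Pold2, Rpa1 and E2f2 at day 2. At day 11 they were those of Gmnn, Gins3, Rfc5, Rpa1 and Fen1. Centring subtracts 1 constant from each array, so it cannot change a gene's distance from the median of all genes. Over all genes this took the lower share of calls from 55.9% to 14.8% at day 2 and from 49.9% to 8.85% at day 11, with 5644 and 9376 genes called in place of 3774 and 3500. In controls with age, 18 replication genes were called when only the arrays compared entered the fit (1581 of all genes, against 996) and 4 after housekeeping centring. The cause of these shifts was not tested.

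With 1 array left out the replication genes called ranged from 32 to 39 in knockouts at day 2, 32 to 37 at day 11, 1 to 12 in controls with age, 16 to 23 in knockouts with age and 0 to 2 in the interaction. The medians ranged from -0.78 to -0.69, -0.86 to -0.75, -0.30 to -0.23, -0.49 to -0.30 and -0.18 to -0.02. In controls with age 2 were called without control day 2 replicate 1, and 1 each without control day 2 replicate 2, control day 11 replicate 1 and control day 11 replicate 2. Over all genes, calls fell to 2428 and 2223 at day 2 without either control day 2 array and to 2059 at day 11 without control day 11 replicate 1. In controls with age they fell to between 233 and 346 without a control array. In knockouts with age they fell from 2915 to 1632 without knockout day 2 replicate 1, 1541 without knockout day 11 replicate 2, 1463 with the Y-linked covariate and 1466 with only the arrays compared. In the interaction they went from 615 to between 197 and 942. Where a group was left with 1 array, it was taken to vary like the others.

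Arrays with the same replicate number had deviations correlated from -0.075 to 0.25, so the numbers were not taken to pair the pools. With the number as a replicate block, 38, 37, 10, 20 and 0 genes were called in the 5 comparisons in the order above. With only the first pair of motif forms, 31.71% of the windows of the replication genes and 2.257% of those of all genes tested held a motif.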
